A study of Saccharomyces cerevisiae with 26 samples.

Results

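The tRNA genes described here are the nuclear genes of type tRNA in the public annotation of the S. cerevisiae R64 genome, which has the sequence of sacCer3. Of 299 annotated tRNA genes, 275 were nuclear and all were kept, and the 24 of the mitochondrial genome were left out. The annotation holds 6477 genes in all. For each tRNA gene, the gene body, its last base and the 100 bp downstream were compared with a deposited list of A-rich genomic positions, on the strand of the gene (sense) and, separately, on the opposite strand.

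The study sequenced RNA 3′ ends in 26 libraries of the strains Mex67-AA (strain 1, 14 libraries) and Nab2-AA (strain 2, 12 libraries), in which rapamycin draws the tagged nuclear protein out of the nucleus. Cells were grown at 30°C in medium lacking uracil and carried a plasmid that overexpresses FUI1, the uridine permease, and 12 libraries were from cells given rapamycin for 15 min, the other 14 from cells without it. Total RNA (8 libraries) and RNA purified after 2 min of 4tU labeling (18 IP libraries, of which 2 were from unlabeled cells) was sequenced either directly (9 libraries, pA+) or after E-PAP treatment and rRNA depletion (17 libraries, pA+,-), where E-PAP is the poly(A) polymerase of E. coli. Tracks of the libraries were not used here, and the values below are counts of genome positions, with no expression level, sample or replicate behind them.

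The libraries were primed with oligo(dT), which can also anneal to As encoded in the RNA, and the authors therefore listed strand-specific positions followed by A-rich sequence and removed them from their tracks. A position in this list is called masked. As described in the methods, this applied where the 6 bp after it were free of C and T and contained over 4 As (the 6 bp rule), or where over 12 of the 18 bp after it were As (the 18 bp rule). The list itself reached further, with 4 As and 12 As being enough, respectively, and a small number of listed positions met neither rule even then. The list was made from the genome sequence alone, so each share below is a complete count without counting error. Its spread is given as the SD over the 16 nuclear chromosomes, and no test was made. Of the 24142652 strand-specific positions of the nuclear genome, 2.67% were masked, and of those outside annotated genes 4.36%.

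Nuclear tRNA genes are transcribed by RNA polymerase III (RNAPIII), which is recruited through promoter elements inside the gene and terminates on a run of Ts in the non-template strand a short way past the mature end. The U-tract of the primary transcript is bound by the La protein (Lhp1 in yeast) and is removed when the 3′ trailer is trimmed, after which the CCA end is added by an enzyme because yeast nuclear genes do not encode it. Some tRNA genes also carry a short intron just 3′ of the anticodon, which is cut out by a dedicated endonuclease. A terminator of Ts on the strand of the gene reads as a run of As on the opposite strand.

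The 275 genes lay on all 16 chromosomes, with 4 to 36 genes on each, and 143 were on the plus strand. They were 71 to 133 bp long (median 73 bp), and 60 had an annotated intron of 14 to 60 bp. Because tRNA genes occur in families, the 275 genes had only 70 distinct sequences: 33 genes had a sequence of their own and 242 fell into 37 sets of identical copies, the largest being 16 copies of a tRNA-Gly gene. Symbols were available for 47 genes, and the others are named by their locus identifiers.

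The 3′ ends of 6 genes show how the list falls on the sequence past the gene end. Termination itself was not measured here. Each line gives the last 12 bases of the gene and the next 48 bases, 5′ to 3′ on the strand of the gene, in R64 coordinates, and capitals mark the positions masked on the opposite strand. TRN1 and SUP4, a suppressor gene for tRNA-Tyr that is a standard template for RNAPIII transcription, are examples with a T run close to the gene. YNCK0019W had the most masked opposite-strand positions, YNCB0015W is followed by a second tRNA gene, SUF2 had no such position within 40 bp, and YNCN0004W had none within 100 bp.
TRN1 (Pro, chrI:139243-139302, plus strand): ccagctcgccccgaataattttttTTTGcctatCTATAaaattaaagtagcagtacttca
SUP4 (Tyr, chrX:542908-542967, minus strand): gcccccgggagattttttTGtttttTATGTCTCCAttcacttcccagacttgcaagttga
YNCK0019W (Ala, chrXI:518049-518108, plus strand): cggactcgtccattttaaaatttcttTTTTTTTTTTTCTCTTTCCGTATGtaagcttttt
YNCB0015W (Arg, chrII:405938-405997, plus strand): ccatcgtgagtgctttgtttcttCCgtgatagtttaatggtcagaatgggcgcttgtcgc
SUF2 (Pro, chrIII:123529-123588, minus strand): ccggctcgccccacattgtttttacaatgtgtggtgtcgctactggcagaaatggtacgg
YNCN0004W (Thr, chrXIV:104866-104925, plus strand): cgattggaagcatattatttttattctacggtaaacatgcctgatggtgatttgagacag
The window of an opposite-strand position extends back toward the gene. In TRN1, SUP4 and YNCK0019W the capitals start within a T run and go on beyond it, in YNCB0015W they follow a T-rich stretch without 4 Ts in a row, and SUF2 and YNCN0004W have none in this stretch.

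No tRNA gene had a masked last base on either strand. The last base is the annotated end of the mature sequence before CCA addition, and on the sense strand 0 of 275 were masked. The share of single masked positions in the nuclear genome, 2.67%, would correspond to 7.34 of the 275. A T in the 6 bp after a position bars the 6 bp rule. At each of the first 6 bases downstream, between 59.3% and 84.4% of the genes had a T, which the nuclear share does not take into account. Within 10 bp of the last base on either side, 5 genes (1.82%) had a masked sense position, compared with 18.7% of all nuclear strand positions. On the opposite strand 182 genes (66.2%) had one, against the same background of 18.7%, since all positions of both strands were counted.

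The mask downstream of the genes was uneven between strands. On the sense strand 717 of the 27500 positions in the 100 bp downstream were masked, or 2.61% ± 0.553 (SD over 16 chromosomes), a share close to the nuclear genome and 0.598 times that of bases outside genes. It was above the share of the own chromosome on 7 chromosomes and below it on 9, and on all 16 it was below the share outside genes. On the opposite strand 3447 positions were masked, or 12.5% ± 1.81, with single chromosomes between 9.29% and 16.4%. This was 4.70 times the nuclear share and 2.87 times the share outside genes, and it was above that of the own chromosome on 16 of 16. In the 100 bp upstream of the genes, 2.11% of positions were masked on the sense strand and 1.93% on the opposite strand.

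Most single genes showed the same order of strands. There were more masked positions on the opposite strand than on the sense strand in 242 genes, fewer in 26 and equal numbers in 7. The matching shares of all nuclear strand positions were not counted. Over all of these, more and fewer are about equally frequent, because each stretch is read once from either strand. The number of masked opposite-strand positions in 100 bp had a median of 12 per gene and ranged from 0 to 70, whereas the sense number had a median of 1 and ranged from 0 to 37. On the sense strand 129 genes had none and 146 (53.1%) had at least 1, close to the 55.9% of nuclear strand positions with one in the next 100 bp. On the opposite strand only YNCN0004W had none, so that 99.6% had one, against a background of the same 55.9%. The first masked opposite-strand position lay at a median of 9 bp from the gene (range 4 to 127 bp), and the first masked sense position at a median of 95 bp (range 4 to 740 bp, the highest for YNCD0023C).

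Close to the gene the strands diverged most. A masked opposite-strand position was found within 20 bp downstream of 255 genes (92.7%), where 18% of nuclear strand positions have one in the next 20 bp, and within 40 bp of 268 genes (97.5%), where 30.5% have one in the next 40 bp. A masked sense position was found within 20 bp downstream of 24 genes (8.73%) and within 40 bp of 52 genes (18.9%), against the same backgrounds of 18% and 30.5%. So the first 40 bp held opposite-strand masking in nearly all genes and sense masking in fewer genes than nuclear positions in general.

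**Figure D1:**
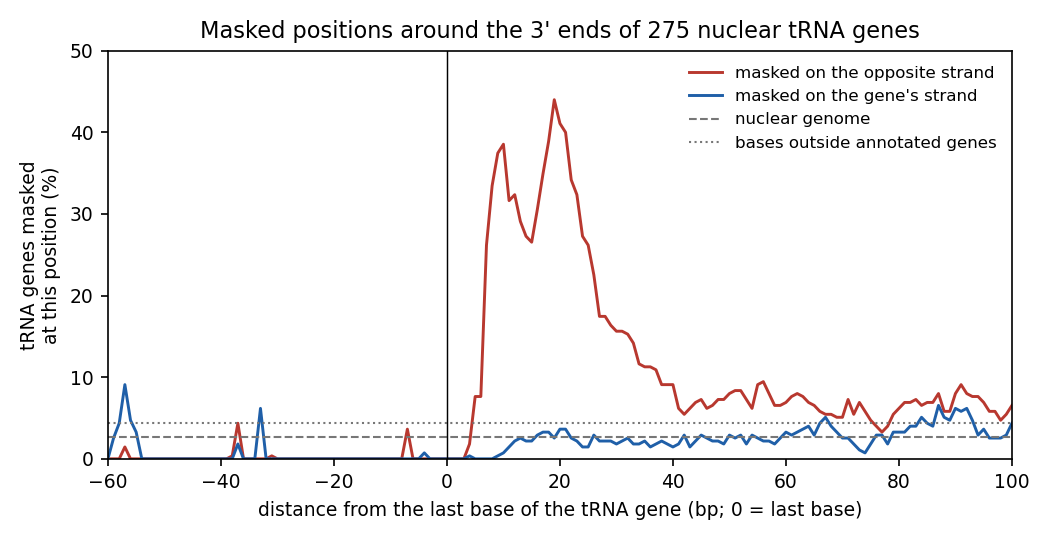
Share of the 275 nuclear tRNA genes (y axis, %) that are masked at each distance from the last base (x axis, bp, 0 is the last base), with the nuclear share (2.67%, dashed) and the share outside genes (4.36%, dotted). The opposite-strand line has maxima at 10 and 19 bp downstream, where 106 and 121 genes are masked, while the sense line has single peaks inside the gene, of up to 25 genes, and is 0 at the last base.

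The opposite-strand mask rose to a first maximum at 10 bp downstream, with 106 of 275 genes masked, dropped to 73 genes at 15 bp and reached a second maximum of 121 genes (44%) at 19 bp. The maxima corresponded to different rules, counted here at the thresholds that match the list. At 10 bp, 105 of the 106 genes met the 6 bp rule alone, whereas at 19 bp 85 of the 121 met the 18 bp rule alone and 32 met both. Between 11 and 30 bp the share was 29.3%, then 6.62% between 41 and 100 bp and 4.57% between 101 and 200 bp. Over 100 bp, 1386 of the 3447 masked opposite-strand positions met only the 6 bp rule, 1343 only the 18 bp rule, 646 both and 72 neither. With the rules as written, 2296 of them (66.6%) would be masked.

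**Figure D2:**
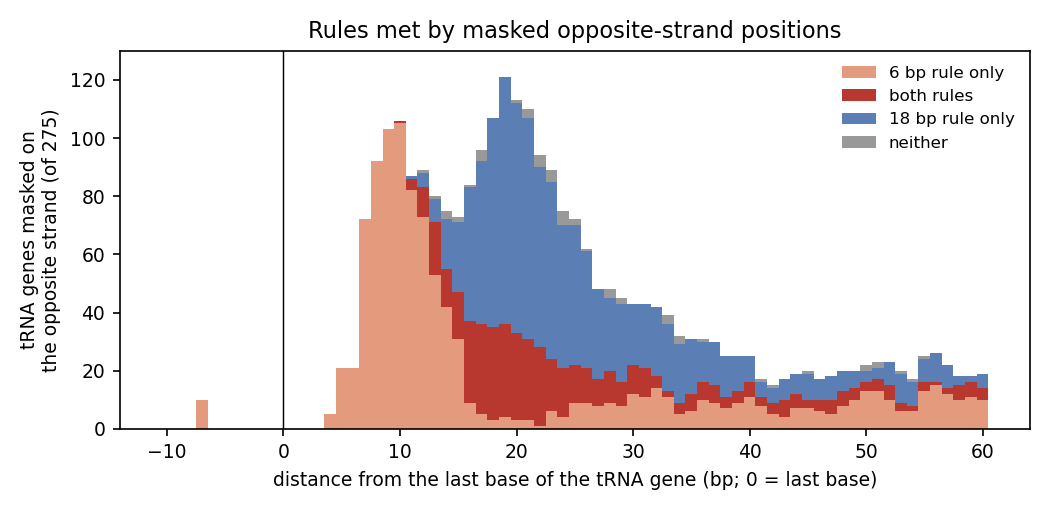
Number of tRNA genes of 275 (y axis) masked on the opposite strand at each distance from the last base (x axis, bp), stacked by the rule that the position meets, namely the 6 bp rule only, both rules, the 18 bp rule only, or neither. The maximum at 10 bp is made up of the 6 bp rule (105 of 106 genes) and that at 19 bp mainly of the 18 bp rule (85 of 121 genes with that rule alone).

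The underlying sequence was scored separately from the mask. At 6 bp downstream 232 of 275 genes (84.4%) had a T, while at the last base 147 (53.5%) had an A and 29 had a T. Every gene had a run of at least 5 Ts within 100 bp, counted from the first base downstream. In 266 genes (96.7%) there were 5 Ts in a row within the next 20 bp, which holds for 5.28% of nuclear strand positions, and in 271 genes (98.5%) within the next 40 bp, against 11%. The first such run began at a median of 4 bp (range 1 to 85 bp) and was 6 bp long at the median (range 5 to 13 bp). Of the 1816 bases in these runs, 471 (25.9%) were masked on the opposite strand and 9 on the sense strand. A masked opposite-strand position lay inside the run in 177 genes (64.4%), compared with 40.6% of all nuclear runs of at least 5 Ts, and inside it or in the 20 bp after it in 264 genes (96%), compared with 81.3%. Within classes of run length the gap was smaller: for runs of exactly 5 Ts the shares inside the run were 32.2% (19 of 59 genes) and 24.6%, and with the 20 bp after it 81.4% and 70%. For runs of at least 6 Ts the shares inside the run were 73.1% (158 of 216 genes) and 67%, and with the 20 bp after it both were 100%, which the 6 bp rule ensures. No masked sense position occurred from the last base to the end of the first T run in 268 genes. A T in the 6 bp after a position bars the 6 bp rule, so few are possible there. The same stretch was not counted for other nuclear T runs.

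Grouped by the length of the first run of at least 4 Ts, the genes with runs of 5, 6 or 7 Ts (53, 82 and 70 genes) all had a median of 5 masked opposite-strand positions in 40 bp. The median was 10 for runs of 8 (29 genes), 13 for runs of 9 (11 genes) and 17 for runs of 10 or more (7 genes), so that from 7 Ts on it rose with length. The 23 genes with a first run of exactly 4 Ts had a median of 13, and a further run of 5 to 13 Ts followed within 40 bp in 22 of them. Over all 275 genes, the masked number in 40 bp had a Spearman correlation of 0.105 with the length of the first run. With the number of Ts in the same 40 bp it was 0.672. The rules count these Ts as As of the opposite strand, so a relation with their number is partly built in.

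For 7 genes no opposite-strand position was masked within 40 bp, and in all of them the first T run was exactly 5 bases long. These were SUF2 (Pro), SUF5 (Gly), YNCD0005C and YNCN0004W (Thr), YNCD0006W (Ser), YNCL0034W (Leu) and YNCL0038W (Ile). Among the 53 genes with a first run of 5 Ts, the other 46 did have a masked position. In the sequences above, the 5 Ts of SUF2 and YNCN0004W are bounded by A on the 3′ side and by G or A on the 5′ side. The first masked opposite-strand position lay 61 bp downstream of SUF2 and 127 bp downstream of YNCN0004W.

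At 4 places an Arg gene was followed by an Asp gene on the same strand after 10 bp, as in YNCB0015W (chrII:405878-405949) and YNCB0016W. The others were YNCD0011W and YNCD0012W on chromosome IV, and YNCJ0011W and YNCJ0012W, and YNCJ0014C and YNCJ0013C, both on chromosome X. None of the 10 intervening bases was masked on either strand. The first run of at least 5 Ts began 84 to 85 bp after the 4 Arg genes, that is, past the Asp gene. In the 100 bp after these Arg genes 4.50% of opposite-strand positions were masked, compared with 12.7% for the other 271 genes, and in the first 40 bp the shares were 5% and 21.6%. In each of the 4 Arg flanks, however, 72 of the 100 bases are the Asp gene itself, so these shares are largely those of a gene body. Such Arg-Asp pairs are known in yeast to be transcribed as a dimeric precursor.

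Masked sense positions close to a gene end are the exception, and the 3′ ends of 3 such genes are shown with the positions masked on the sense strand in capitals. YNCE0009C and YNCN0006W are among the 5 genes with a masked sense position within 10 bp of the last base, the others being YNCJ0008W, YNCK0017W and YNCM0010W. YNCM0020W had 17 masked sense positions in 100 bp.
YNCE0009C (Lys, chrV:135377-135436, minus strand): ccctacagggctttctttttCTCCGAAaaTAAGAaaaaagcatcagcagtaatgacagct
YNCM0020W (His, chrXIII:363124-363183, plus strand): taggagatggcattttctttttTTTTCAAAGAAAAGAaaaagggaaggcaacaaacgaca
YNCN0006W (Phe, chrXIV:374948-375007, plus strand): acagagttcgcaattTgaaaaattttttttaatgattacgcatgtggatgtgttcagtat
In YNCE0009C the first masked sense position was 9 bp and in YNCM0020W 11 bp downstream, and in YNCM0020W a run from 11 to 25 bp began inside the T run, which is followed by A-rich sequence. In YNCN0006W a single position at 4 bp was masked, ahead of a T run from 11 to 18 bp. In YNCJ0008W and YNCK0017W (both Arg) the masked position was inside the gene, 4 bases before its last base.

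Downstream masking varied among amino acid groups and among the genes of a group. On the opposite strand the share in 100 bp was highest for the 4 Cys genes (24.0%) and lowest for the 16 Asp genes (6.63%). It was 8.84% for Arg, including the 4 flanks that run into an Asp gene. Val had 9.17%, and the other groups had between 10.6% and 15.1%. The 4 Cys genes had 10 to 35 masked positions each and the 16 Asp genes 1 to 19, so that the ranges overlapped. On the sense strand the highest share was that of the 10 Gln genes (6.30%) and the lowest that of the 8 Tyr genes (0.125%), where SUP4 and 6 others had no masked sense position and 1 gene had a single one. The Gln value rested on CDC65 and was 2.89% without this gene. Genes with an intron had an opposite-strand share of 13.2% and genes without one 12.4%.

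**Figure D3:**
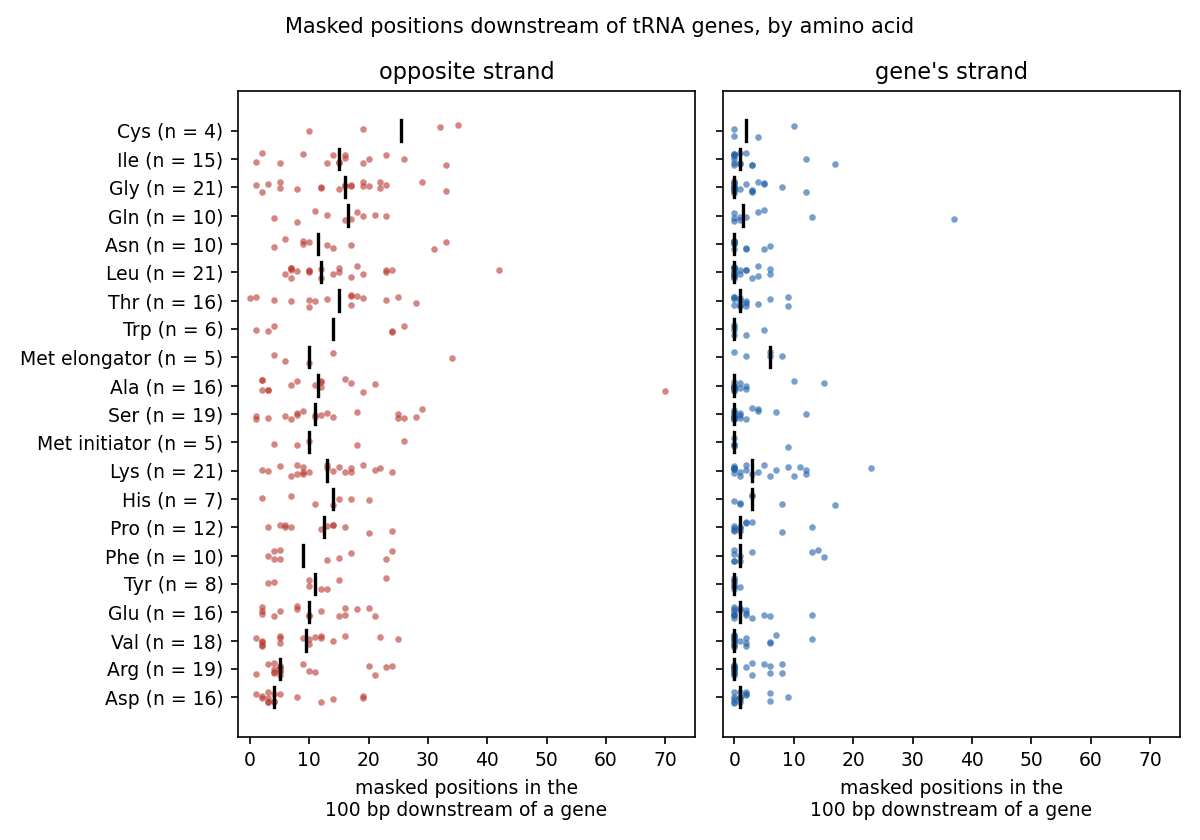
Masked positions in the 100 bp downstream of each tRNA gene (x axis, count) on the opposite strand (left) and the gene's strand (right), by amino acid group (y axis, n is the number of genes). Points are genes, shifted at random in height for visibility, and black bars are group medians. Cys has the highest opposite-strand median (25.5) and Asp and Arg lie at 4 and 5, and YNCK0019W (Ala, 70) and CDC65 (Gln, 37) stand apart.

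Identical gene copies had different flanks. In 33 of the 37 sets all copies had the same masked counts in the body. The list follows from the sequence, so bodies of identical copies can differ only near their ends, where a window reaches into the flank. Downstream, the 16 identical Gly copies had 2 to 33 masked opposite-strand positions (median 17), the 11 Ala copies of the set with YNCK0019W 2 to 70 (median 8) and the 15 Asp copies 1 to 19 (median 4).

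Among single genes, the highest opposite-strand number in 100 bp was that of YNCK0019W (Ala, chrXI:517988-518060, plus strand), with 70 masked positions in runs at 15 to 38 bp and 49 to 94 bp, after a run of 13 Ts that begins at 13 bp, behind 4 Ts at the gene end, and is the longest among the first runs of at least 5 Ts. Without it the share of all genes was 12.3% and that of Ala fell from 13.6% to 9.80%. YNCD0008W (Leu, chrIV:519743-519826, plus strand) followed with 42 positions, of which 5 were in the first 40 bp. YNCG0030C (Cys, chrVII:707108-707179, minus strand) had 35, with runs at 38 to 53 bp and 57 to 74 bp. EMT5 (elongator Met, chrX:391043-391115, minus strand) had 34 and YNCD0017W (Ile, chrIV:884361-884493, plus strand), of the greatest length together with YNCL0033C, had 33. In each of these 5 genes most of the masked positions lay beyond the first 40 bp. Within it were 24 of the 70 in YNCK0019W and 15 of the 33 in YNCD0017W. SUP4 (chrX:542956-543044, minus strand) had 15, of which 12 were in the first 40 bp, after a run of 7 Ts that starts at the first base downstream.

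The highest sense number was that of CDC65 (Gln, chrXIII:808246-808317, minus strand), with 37 masked positions in a single run from 56 to 92 bp. The share of all genes was 2.48% without it. YNCK0021W (Lys, chrXI:578965-579060, plus strand) had 23, YNCB0004W (Ile, chrII:197494-197567, plus strand) and YNCM0020W (His, chrXIII:363064-363135, plus strand) 17 each, and YNCH0009C (Phe, chrVIII:237848-237939, minus strand) 15. YNCB0004W faces the Gly gene YNCB0005C across 61 bp (chrII:197568-197628), so that each lies downstream of the other. Of these 61 positions 17 were masked on the plus strand, which is the sense strand of YNCB0004W, and 5 on the minus strand. Across all members, 13 flanks touched another annotated gene (3.05% of the flank bases).

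Inside the genes the mask was sparse on both strands. On the sense strand 103 of 21939 positions were masked, or 0.469%, with a mean over chromosomes of 0.502% ± 0.321 (SD, 16 chromosomes), and the share was below that of the own chromosome on 16 of 16. These positions lay in 59 genes (21.5%). On the opposite strand 54 positions in 49 genes (17.8%) were masked, or 0.246% of positions, again below the own chromosome on 16 of 16. The share of nuclear stretches of gene length with a masked position was not counted. In the next 40 bp, a stretch shorter than any of these genes, 30.5% of nuclear strand positions have one. No gene had more than 5 masked sense or 2 masked opposite-strand positions in its body. All but 1 of the positions on each strand met the 6 bp rule alone, at the threshold that matches the list. With the rules as written, 53 of the 103 sense and 16 of the 54 opposite-strand positions would be masked.

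Masked positions in gene bodies occurred at fixed places in a few families. The sequences of 5 genes are shown whole, with the masked sense positions in capitals, 1 for each amino acid group with more than a single such position.
YNCF0005C (Phe, chrVI:157916-158007, minus strand): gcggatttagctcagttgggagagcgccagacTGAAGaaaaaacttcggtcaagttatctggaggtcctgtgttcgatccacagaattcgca
TGA1 (Ala, chrI:166267-166339, plus strand): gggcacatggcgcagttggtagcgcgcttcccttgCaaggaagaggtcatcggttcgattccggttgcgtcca
YNCA0006C (Ser, chrI:182522-182603, minus strand): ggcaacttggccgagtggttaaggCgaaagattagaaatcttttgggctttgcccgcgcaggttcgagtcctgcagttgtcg
YNCB0015W (Arg, chrII:405878-405949, plus strand): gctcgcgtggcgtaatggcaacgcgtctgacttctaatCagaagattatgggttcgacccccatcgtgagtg
SUP53 (Leu, chrIII:90859-90972, plus strand): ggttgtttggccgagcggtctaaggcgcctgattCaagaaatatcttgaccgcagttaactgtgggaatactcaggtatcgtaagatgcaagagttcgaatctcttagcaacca
In the Phe genes the capitals cover the base before the anticodon, the GAA anticodon and the base after it, which is the last base of the 5′ exon, and the intron that follows begins with a run of As. In the Ala, Arg and Leu genes they lie in the anticodon arm, and in the Ser gene in the D arm.

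The 10 Phe genes held 45 of the 103 masked sense positions, or 4.91% of their bodies, the only group above the nuclear share. In 7 of them positions 33 to 37 of the gene were masked, in YNCB0002W and YNCN0006W positions 33 to 36, and in YNCM0019W positions 33 and 34. The 5 named by count and then by identifier were YNCD0023C, YNCF0005C, YNCG0020C, YNCH0009C and YNCH0010C, with 5 positions each. In Arg genes 19 positions were masked (1.38%), with position 39 in 12 genes and position 40 in 5, where the next 6 bases read AGAAGA. In Ser genes there were 20 (1.21%), 11 of them at position 25, before GAAAGA. Leu had 13 (0.615%) at positions 35 to 38 of 9 genes, before AAGAAA in each at position 35. Ala had 5, at position 36 in TGA1 and 4 identical copies, and Pro had 1, in the intron of SUF9. All other groups had no masked sense position in the body. The windows AGAAGA in Arg, GAAAGA in Ser and AAGGAA in Ala hold 4 As, so the rules as written would not mask those positions.

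On the opposite strand 13 identical Ile genes were masked at position 9, where the opposite strand reads AAGAGA toward the 5′ end of the gene. One of them is YNCB0004W, shown with the masked opposite-strand position in capitals because this family holds all such positions of Ile.
YNCB0004W (Ile, chrII:197494-197567, plus strand): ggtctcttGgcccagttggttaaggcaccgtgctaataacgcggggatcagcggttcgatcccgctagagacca
The Ile share was 1.06%, and with 4 As in each window the rules as written would mask none of these positions. The other groups with more than a single position were Ser (16 positions, 0.969%), Asp (10 positions at bases 2 and 3 of 5 genes, 0.869%) and Leu (11 positions, 0.520%). Of the 5 Asp genes, 4 are the second gene of the Arg-Asp pairs. SUP3 (Tyr), TRT2 (Thr), TRR4 (Arg) and the Glu gene YNCG0016C had 1 each. Asn, Cys, Gln, Gly, His, Lys, both Met groups, Trp and Val had no masked position in the gene body on either strand.

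**Figure D4:**
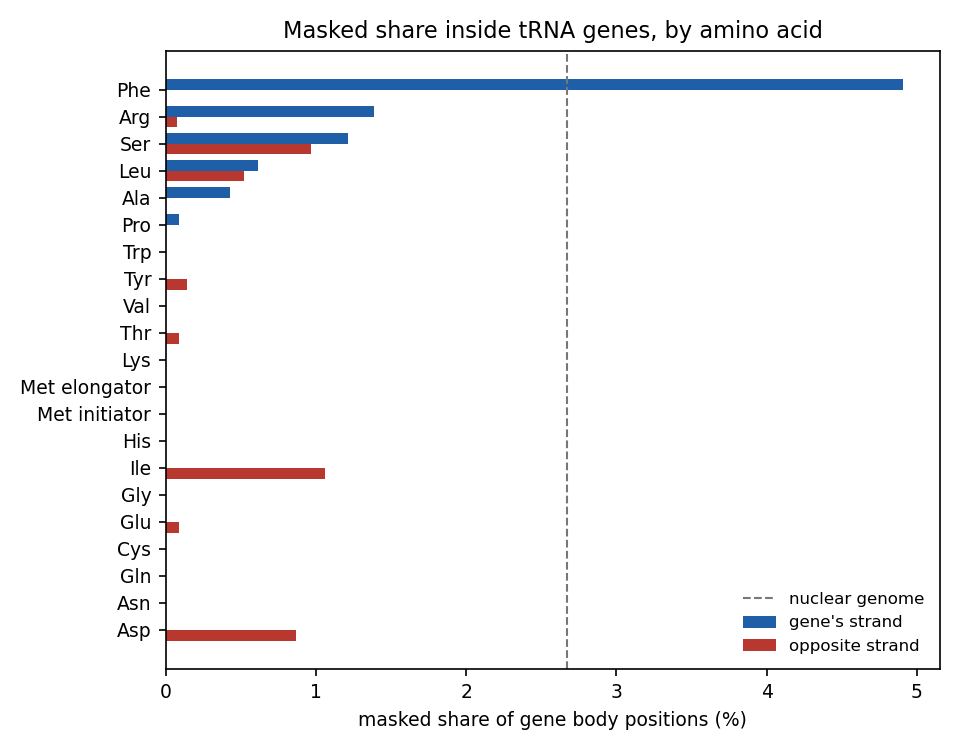
Masked share of gene body positions (x axis, %) on the gene's strand and the opposite strand for each amino acid group (y axis), with the nuclear share dashed (2.67%). Phe is at 4.91% on the gene's strand, and all other bars lie below the nuclear share.

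Intron-containing genes accounted for most of the sense positions. Their bodies had a sense share of 1.09% (66 of 6081 positions), compared with 0.233% (37 of 15858) for genes without an intron. Within these 60 genes the exons had a share of 1.28% (58 of 4531 positions, in 19 genes) and the introns 0.516% (8 of 1550). The exon positions all lay in the 10 Phe genes (45 positions) and in 9 Leu genes (13 positions). Other intron-containing genes had no masked sense position in an exon. For all 58 exon positions the 6 bp window reached into the intron. When the windows were read on the spliced sequence instead, 0 of the 58 met either rule, the 45 of Phe included, and no unmasked exon position met one. The masked exon positions of these genes are therefore defined by the unspliced sequence.

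For comparison, the same positions were counted at the annotated ends of 82 snRNA and snoRNA genes and at the stop codons of 6002 protein-coding genes. These are RNA polymerase II genes with few exceptions, and a stop codon is not a transcript end. The last base was masked on the sense strand in 0 tRNA genes, in 2.44% of snRNA and snoRNA genes and in 5.15% of protein-coding genes. In the first 40 bp downstream 21.4% of opposite-strand positions were masked for tRNA genes, 11.7% for snRNA and snoRNA genes and 3.93% for protein-coding genes. There were 5 Ts in a row within these 40 bp in 98.5%, 32.9% and 19.8% of the genes, respectively. On the sense strand tRNA genes had the lowest share of the 3 classes in the same 40 bp, with 1.74%, 5.21% and 4.49%. Over the whole 100 bp the shares were 2.61%, 3.26% and 4.54%, but beyond 40 bp the order changed. In each bin of 10 bp from 41 to 100 bp, tRNA genes were above snRNA and snoRNA genes and below protein-coding genes. The tRNA and snRNA and snoRNA shares were closest at 51 to 60 bp (2.47% and 2.44%) and furthest apart at 81 to 90 bp (4.73% and 1.34%).

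**Figure D5:**
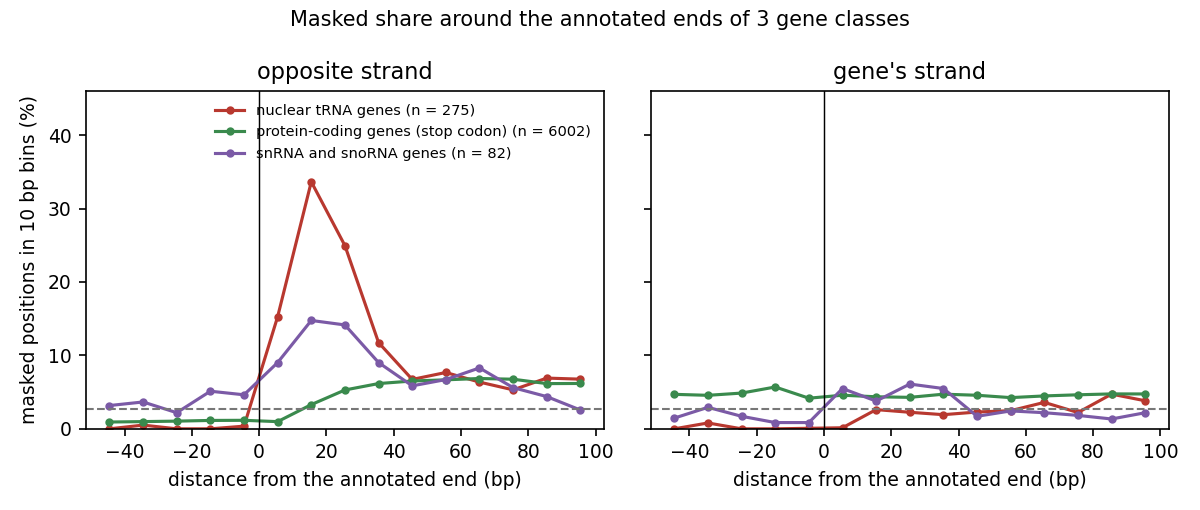
Masked share in bins of 10 bp (y axis, %) by distance from the annotated end (x axis, bp, bin centres) on the opposite strand (left) and the gene's strand (right) for 275 tRNA genes, 82 snRNA and snoRNA genes and 6002 protein-coding genes (stop codon), with the nuclear share dashed. The tRNA genes reach 33.6% on the opposite strand between 11 and 20 bp, and on the gene's strand lie below 1% in the last 50 bp of the gene, which is as far into the gene as the plot goes.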

How the data were processed

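The authors deposited masked positions of the sacCer3 genome as strand-specific runs, by start and end, without a score or measured value. They derived it from the genome sequence and subtracted it from their tracks with bedtools. The submitters' processing notes also name STAR, SAMtools 1.3 and HTSeq 0.6.0, which were not needed for the list. On R64, 296397 positions met the written rules, and 100% of them were in the list on the same strand, so that coordinates of R64 were used.

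Members were taken from the R64 annotation and compared by strand with the 223663 runs. Python 3.11.15, numpy 2.4.6, pandas 2.3.3, scipy 1.17.1 and matplotlib 3.10.9 were used. The function that applies the 6 bp and 18 bp rules was tested on simulated sequence. The counting of listed positions by gene was not part of that test. No column of single libraries was used (0 left unmapped) and no test was made.

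The members and lists were chosen with earlier results of these data known. Genes were named if their last base was masked, if they were among the 5 with the most masked positions in the body (sense) or 100 bp downstream (each strand), ties by identifier, or as SUP4. All others named were picked with their values in view.

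The alternatives applied the written rules, left out introns or bases in other genes, took 1 gene per distinct sequence, averaged chromosomes, changed the flank to 50 or 200 bp, and changed the shortest T run to 4 or 6. Counting T runs from the last bases of the gene was chosen after seeing the data.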

Additional observations from a re-analysis of the deposited data

How the results depend on the processing

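Of 30 alternative values of 7 results, 15 lay outside the 95% Wilson interval of the reported share, used here as a yardstick only, or moved a count by over 1.5 times, and 15 did not. With the written rules in place of the list, the shares were 0.242% for sense bodies, 0.0729% for opposite-strand bodies, 1.29% for sense flanks, 8.35% for opposite-strand flanks and 1.21% for the nuclear genome. Relative to the nuclear share, the sense flanks then moved from 0.977 to 1.06 times, a change of side, while the opposite-strand flanks moved from 4.70 to 6.90 times. With 1 gene per distinct sequence, the sense body share was 0.681%, the sense flank share 3.09% and the opposite-strand flank share 12.1%. In that setting 41 genes of 70 had a masked opposite-strand position in the T run. This count is among the 15 that moved, but the number of genes counted also fell, from 275 to 70. A flank of 50 bp gave 1.85% sense and 18.5% opposite strand, and one of 200 bp 3.16% and 8.55%. Counting any masked sense position within 10 bp in place of the last base gave 5 genes. Taking only bases outside genes gave a nuclear share of 4.36%. With T runs counted from the last bases of the gene, which was chosen after seeing the data, 176 genes in place of 177 had a masked position in the run.

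No paired analysis was possible because the list has no samples. The list says where 3′ ends were not scored, and how many reads were removed at a tRNA gene was not analysed here.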
